A study of Mus musculus with 167 samples.

Results

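The genes described here are 10 genes of the unfolded protein response of the endoplasmic reticulum (ER), measured in mouse liver: Hspa5, Hsp90b1, Calr, Pdia4, Pdia6, Dnajc3, Sdf2l1, Herpud1, Syvn1 and Xbp1. They were chosen by name as a list of ER stress genes, with earlier results of these data known. All 10 were found among the 39179 gene IDs of the deposited table. The study profiled polyA RNA from the livers of C57BL/6 mice that model Huntington's disease. The libraries fall into 21 groups, made of 7 genotypes at 2, 6 and 10 months of age. The knock-in lines were heterozygous and are named for the length of the CAG repeat in the huntingtin gene: Q20, Q80, Q92, Q111, Q140 and Q175. The control genotypes were the heterozygous Q20 line, which carries a knock-in with a short repeat, and littermate wild-type (WT) mice without a knock-in, which the labels describe as housed with Q20 mice. A group was 8 libraries, 4 from each sex. By its labels the Q80 line was the exception, with 3 female and 5 male libraries at 2 months and 4 female and 3 male ones at 10 months. Every mouse of a knock-in line carries the allele in all cells, and the labels name no treatment. The tissue was bulk liver, flash frozen, so a lower level may reflect fewer cells of a type or less RNA per cell, and these cannot be told apart.

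When unfolded proteins build up in the ER, sensors in its membrane switch on genes that fold, retain or remove proteins. The sensor Atf6 releases a transcription factor that acts through ER stress elements in promoters, and the sensor Ern1 splices the mRNA of Xbp1 into the form that encodes an active factor. Liver cells secrete most plasma proteins, and their ER folding genes are known to follow feeding and the time of day. Hspa5 encodes BiP, the main ER chaperone and the brake on the sensors, and Dnajc3 encodes one of its co-chaperones. Hsp90b1 is the ER member of the Hsp90 family, Calr encodes calreticulin, the calcium-binding lectin chaperone, and Pdia4 and Pdia6 form disulfide bonds in clients. Sdf2l1 encodes a stress-induced ER protein that works with BiP. Syvn1 encodes the ubiquitin ligase at the centre of ER-associated degradation, and Herpud1 encodes a membrane protein that joins the same complex. Gene counts of Xbp1 cannot tell its spliced from its unspliced mRNA.

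Promoters are shown first because the ER stress element is the sequence that these genes are known for sharing. The 250 bases before the start of each gene were taken from RefSeq (GRCm38.p6), which held a promoter for all 10 genes, and searched on both strands together with the 50 bases after it. Printed 5′ to 3′ in the direction of the gene, with matches in capitals, are the promoters of Hspa5 (chr2:34771840-34772089, plus strand), Syvn1 (chr19:6046326-6046575, plus strand), Herpud1 (chr8:94386179-94386428, plus strand) and Sdf2l1 (chr16:17132384-17132633, minus strand). Hspa5 is shown as the gene of the main chaperone, Syvn1 because it was the gene of the 10 whose level moved most closely with that of Hspa5, Herpud1 because it moved with clock genes, and Sdf2l1 because it had the largest difference between the sexes.
Hspa5: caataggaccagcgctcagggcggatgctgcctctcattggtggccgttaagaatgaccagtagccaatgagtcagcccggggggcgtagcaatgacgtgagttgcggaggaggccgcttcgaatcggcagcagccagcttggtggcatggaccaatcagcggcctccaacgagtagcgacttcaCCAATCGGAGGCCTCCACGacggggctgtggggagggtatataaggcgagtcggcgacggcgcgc
Syvn1: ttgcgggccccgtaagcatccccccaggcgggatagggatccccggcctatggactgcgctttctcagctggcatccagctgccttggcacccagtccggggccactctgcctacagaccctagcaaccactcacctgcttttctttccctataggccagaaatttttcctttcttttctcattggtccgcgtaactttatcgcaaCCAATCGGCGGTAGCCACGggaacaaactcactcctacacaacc
Herpud1: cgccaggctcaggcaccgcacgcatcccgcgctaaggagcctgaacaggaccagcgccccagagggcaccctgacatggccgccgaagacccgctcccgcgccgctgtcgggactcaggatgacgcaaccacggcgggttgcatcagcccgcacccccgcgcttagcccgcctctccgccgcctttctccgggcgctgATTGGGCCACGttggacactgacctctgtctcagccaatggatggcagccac
Sdf2l1: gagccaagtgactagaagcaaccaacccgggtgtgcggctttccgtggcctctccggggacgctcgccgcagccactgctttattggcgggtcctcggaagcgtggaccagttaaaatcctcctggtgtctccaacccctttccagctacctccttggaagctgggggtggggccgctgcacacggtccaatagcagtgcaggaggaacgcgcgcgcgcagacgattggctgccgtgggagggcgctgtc

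The full ER stress element, ERSE, was searched as CCAAT and CCACG with any 9 bases between them. It was present in 6 of the 10 promoters, against 39 of 32851 promoters of the same length in the table (0.119%). Counting -1 as the base just before the start, it lay at -65 to -47 in Hspa5 and at -44 to -26 in Syvn1. The shorter ERSE-II, ATTGG and CCACG with any 1 base between them, lay at -52 to -42 in Herpud1, against 12 promoters in the table (0.0365%). The 2 elements end in the same 5 letters, CCACG, and in the 10 promoters no match to one was also a match to the other. The unfolded protein response element, TGACGTGG, was in 222 promoters (0.676%) and in 0 of the 10. Other matches to ERSE are given with 10 bases on each side, so that the fixed letters can be compared across genes. They lay at -212 to -194 and, in reverse, at -107 to -89 in Hsp90b1, in reverse at -162 to -144 in Calr, at -98 to -80 in Pdia6 and at -105 to -87 in Dnajc3. The motifs themselves span chr10:86705638-86705656, chr10:86705533-86705551 and chr8:84847075-84847093 on the minus strand, and chr12:17266491-17266509 and chr14:118937827-118937845 on the plus strand.
Hsp90b1, distal: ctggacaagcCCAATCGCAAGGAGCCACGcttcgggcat
Hsp90b1, proximal: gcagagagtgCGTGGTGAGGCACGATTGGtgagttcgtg
Calr: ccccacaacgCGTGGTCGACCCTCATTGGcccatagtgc
Pdia6: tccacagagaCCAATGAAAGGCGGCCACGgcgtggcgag
Dnajc3: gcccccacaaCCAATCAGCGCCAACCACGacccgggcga

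The promoters of Pdia4, Sdf2l1 and Xbp1 held no exact match to any of these full motifs in the 300-base window. Matches with a changed letter or another spacing were not searched for. A match describes letters and is not a site shown to be bound.

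All 10 genes were well expressed in every library. In FPKM, which divide by gene length and so can be compared between genes, the median over all libraries was 283 FPKM for Calr, 279 FPKM for Hsp90b1, 224 FPKM for Hspa5 and 219.9 FPKM for Herpud1. Their ranks among the 39179 IDs by median FPKM were 230, 235, 298 and 309. Pdia6 (84.2 FPKM), Xbp1 (80.6 FPKM), Pdia4 (62.0 FPKM) and Dnajc3 (39.8 FPKM) followed at lower levels. The lowest were Syvn1 at 19.9 FPKM, rank 2465, and Sdf2l1 at 11.2 FPKM, rank 3812. Sdf2l1 ran from 3.03 to 57.8 FPKM and Syvn1 from 10.1 to 117 FPKM, while Hsp90b1 ran from 202 to 552 FPKM. The smallest count of any of the 10 genes in any library was 137, for Sdf2l1, and all 10 passed the filter on low counts in every comparison.

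The libraries held 32025244 to 57151736 expected counts each. Medians by age were deepest at 6 months (46777191), then at 10 months (38228631) and at 2 months (34696186). Huntingtin itself, Htt, was lower in Q175 than in Q20 mice at each age, with log2 fold changes of -0.48, -0.59 and -0.67 at 2, 6 and 10 months. All 9 hepatocyte marker genes were above 0 in every library. Sex-linked genes matched the labelled sex in every library but 1, the Q80 male M5 at 2 months, and results that include it are given with and without it where they differ. At 6 months the library names of WT mice follow another format than those of every knock-in line, so genotype and library set cannot be told apart there. Levels below are CPM, counts scaled to library size with TMM normalization, and tests are edgeR's quasi-likelihood test on counts with p-values adjusted by Benjamini-Hochberg across every gene tested, called at an adjusted p below 0.05. The labels give each library as a replicate of its group and do not describe litters. Each p-value sets a difference against the spread between these libraries, which were treated as independent. Whether they are independent was not tested.

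The 10 genes differed most between females and males. In the library names of 2 and 10 months, a code differed between the females and the males of each genotype. The Q80 male M5 at 2 months was the exception. WT names at 6 months were split in the same way, so sex and this code cannot be told apart in these libraries. Over all genotypes, 7 of the 10 were lower in females at 2 months, 9 at 6 months and 9 at 10 months, and 0 were higher at any age. Of all genes tested, 27.7%, 29.5% and 27.2% were lower in females at 2, 6 and 10 months, and 29.8%, 31.4% and 30% were higher. The median log2 fold change of the 10 genes was -0.37, -0.61 and -0.46, beside a median over all genes of 0.01, 0.01 and 0.02. Herpud1 was the exception at every age, Dnajc3 and Xbp1 did not pass at 2 months, and the other 7 passed at all 3 ages.

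The gene with the largest difference was Sdf2l1, the partner of BiP. At 2 months it had 6.70, 9.99 and 21.8 CPM in females (lowest, median and highest of 27) and 7.91, 19.9 and 45.1 CPM in males (29 libraries). At 6 months it had 4.57, 9.23 and 23.2 CPM in females (28 libraries) and 10.5, 27.7 and 69.1 CPM in males (28 libraries). At 10 months it had 3.05, 7.12 and 26.0 CPM in females (28 libraries) and 7.69, 14.5 and 66.5 CPM in males (27 libraries). Females lay low and males high at each age, with overlap: at 6 months 17 of 28 females were below every male. The log2 fold change was -1.08 ± 0.17 (SE), -1.54 ± 0.16 and -1.18 ± 0.20 at 2, 6 and 10 months (edgeR quasi-likelihood test, adjusted p = 2.01e-07, 9.01e-12 and 2.12e-06). The lowest male at 2 months, at 7.91 CPM, was the library whose sex-linked genes went against its label.

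Calr and Pdia6, a lectin chaperone and a disulfide isomerase, separated the sexes most cleanly. At 6 months Calr had 389.8, 479 and 706.8 CPM in females and 522, 782 and 1127 CPM in males. Its log2 fold change was -0.49 ± 0.06, -0.67 ± 0.07 and -0.56 ± 0.07 at the 3 ages (edgeR, adjusted p = 1.4e-09, 5.91e-13 and 4.29e-09). Pdia6 at 6 months had 112, 152 and 203 CPM in females and 164, 251 and 417 CPM in males. Few libraries overlapped at that age: 22 of 28 females were below every male for Pdia6, and 19 of 28 for Calr. The log2 fold change of Pdia6 was -0.44, -0.79 and -0.64 (edgeR, adjusted p = 6.73e-07, 1.08e-13 and 3.07e-09). Within the 21 groups of genotype and age, all females lay below all males in 14 groups for Calr, in 14 for Pdia6 and in 12 for Sdf2l1. The same held in 7 groups for Pdia4, 6 for Hspa5, 5 for Syvn1, 4 for Xbp1, 3 for Hsp90b1, 2 for Dnajc3 and 0 for Herpud1, and no gene had all females above all males in any group. The same count over all genes was not made. In Q80 mice at 2 months, a group not counted for Calr, Pdia6 or Sdf2l1, the lowest male was M5, at 475, 134 and 7.91 CPM. The sex-linked genes of M5 went against its label, and its library name carries the code of the females of that group, not that of its other males. M5 was kept as labelled. In FPKM, every other male of that group lay above every female for these genes.

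Hspa5, the BiP gene, was lower in females at each age, by a smaller factor than Sdf2l1. It had 312, 528 and 750.3 CPM in females at 2 months, and 482, 641 and 1211 CPM in males. At 6 months it had 264, 442 and 913 CPM in females, and 489.6, 699 and 1994 CPM in males. At 10 months it had 228, 418 and 940.3 CPM in females, and 419, 638 and 1690.2 CPM in males. Ranges overlapped at each age, and the highest male stood far above the other males at 6 and 10 months. Hspa5 differed by -0.43 ± 0.09, -0.69 ± 0.12 and -0.56 ± 0.11 (edgeR, adjusted p = 9.02e-05, 2.58e-06 and 2.97e-05).

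Among the other chaperone genes, Pdia4, an isomerase of the same family as Pdia6, had 113, 142 and 215 CPM in females and 138, 209 and 407 CPM in males at 6 months. Its log2 fold change was -0.33, -0.55 and -0.35 at the 3 ages (edgeR, adjusted p = 3.2e-05, 5.19e-08 and 7.78e-05). Hsp90b1 had smaller differences, -0.17 ± 0.06, -0.36 ± 0.07 and -0.18 ± 0.07 (edgeR, adjusted p = 0.0128, 3.88e-05 and 0.0185). For Hsp90b1 at 6 months, with 608, 715 and 936 CPM in females and 571, 915 and 1856 CPM in males, the lowest library was a male. Dnajc3 differed by -0.10, -0.39 and -0.30 (edgeR, adjusted p = 0.174, 2.37e-06 and 7.21e-05), so the co-chaperone of BiP passed at 6 and 10 months and not at 2 months.

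Of the degradation genes, Syvn1 was lower in females and Herpud1 was not. Syvn1 had 33.4, 59.9 and 156 CPM in females and 59.2, 93.0 and 431 CPM in males at 6 months, and its log2 fold change was -0.41, -0.72 and -0.67 at the 3 ages (edgeR, adjusted p = 0.000814, 0.000118 and 0.000113). Herpud1 had 232, 405 and 717 CPM in females and 182, 368 and 849.6 CPM in males at 6 months, with the lowest and the highest library both male. Its log2 fold changes were 0.09, 0.00 and -0.20 (edgeR, adjusted p = 0.548, 0.999 and 0.0725). Xbp1, the transcription factor, had 115, 149.6 and 192 CPM in females and 111, 171 and 253 CPM in males at 6 months. The Xbp1 values were -0.15, -0.20 and -0.33 on the log2 scale (edgeR, adjusted p = 0.0669, 0.0149 and 0.00133). Without the Q80 male M5, Xbp1 passed at 2 months too (-0.17, adjusted p = 0.033 in edgeR).

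**Figure D1:**
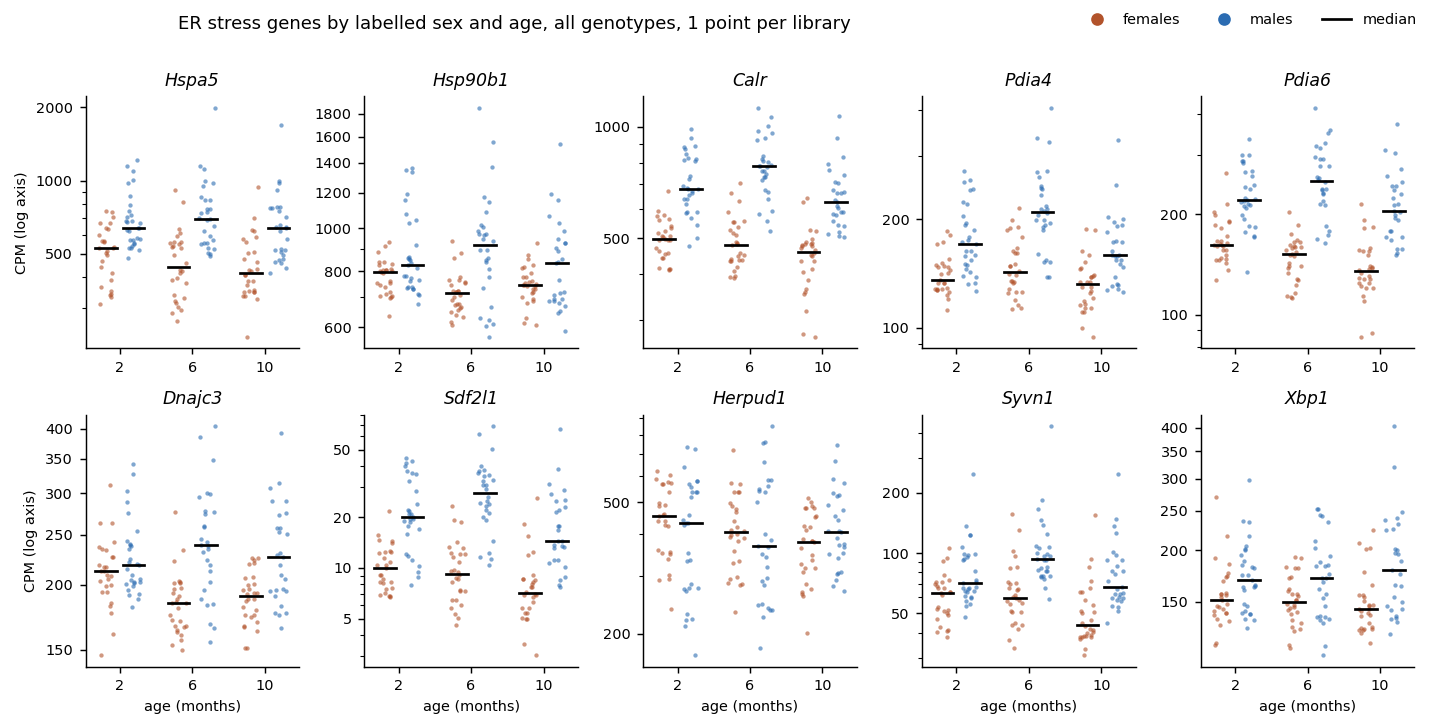
Level of each of the 10 genes in CPM, on a log axis, in every library, by age in months, with females left of males and a line at each median. The female median is below the male median at each age for every gene but Herpud1, where it is above at 2 and 6 months, and the highest points at 6 and 10 months for Hspa5 and Syvn1 are males.

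Many genes outside the 10 that act in the same pathway were also lower in females. The shares of all genes at 2, 6 and 10 months were 27.7%, 29.5% and 27.2% lower, and 29.8%, 31.4% and 30% higher. Of 24 other ER chaperones and oxidoreductases, 14 were lower and 3 higher in females at 2 months, 16 and 0 at 6 months, and 17 and 1 at 10 months. Their median log2 fold change was -0.13, -0.19 and -0.20. Fkbp11, a peptidyl-prolyl isomerase of the secretory pathway, fell furthest among those named, with log2 fold changes of -1.28, -1.51 and -1.55 (edgeR, adjusted p = 1.03e-14, 9.85e-18 and 1.7e-16). Of 20 genes of ER-associated degradation, 15, 17 and 16 were lower and 1 was higher at each age, among them Vcp, the ATPase that pulls proteins out of the membrane (-0.27, -0.38 and -0.36). Of 26 genes of the translocon and of ER to Golgi transport, 21, 20 and 21 were lower and 0 higher, among them Sec63, a translocon subunit (-0.30, -0.39 and -0.40).

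Of 9 sensors and their proteases, 3, 7 and 9 were lower in females at 2, 6 and 10 months, beside the 27.7%, 29.5% and 27.2% of all genes, and a difference between the ages was not tested. Ern1, the sensor that splices Xbp1 mRNA, was lower by -0.39, -0.47 and -0.62 on the log2 scale. In the arm of the response that runs through the kinase PERK, 4, 5 and 4 of 14 genes were higher in females and 3, 3 and 5 lower. Of all genes, 29.8%, 31.4% and 30% were higher at these ages and 27.7%, 29.5% and 27.2% lower. These counts therefore do not set the arm apart. Asns, asparagine synthetase, was lower by -3.23, -4.13 and -3.96, and Vldlr, a lipoprotein receptor, was higher by 2.42, 3.43 and 3.23. Of 14 cytosolic heat shock chaperones, 1, 8 and 3 were lower and 1, 0 and 0 higher.

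Genes of other lists differed by sex as well. Beside them, 29.8%, 31.4% and 30% of all genes were higher in females at 2, 6 and 10 months, and 27.7%, 29.5% and 27.2% lower. Kupffer cell and macrophage markers were higher in females for 12, 12 and 11 of 12 genes at the 3 ages. Their summed level ran from 344 to 758 CPM in females and from 208 to 675 CPM in males at 2 months, from 294 to 1279.7 CPM in females and 137 to 566 CPM in males at 6 months, and from 309 to 871 CPM in females and 237 to 609 CPM in males at 10 months. Of 10 stellate cell markers 7, 6 and 4 were higher in females, and of 9 endothelial markers 8, 5 and 2. At 10 months the endothelial count was below the share of all genes, and the stellate count was little above it. Of 9 hepatocyte markers 1 was higher at each age, and 5, 6 and 6 were lower, while their summed level had medians of 115608, 116173 and 107705 CPM in females and 97426, 101152 and 100377 CPM in males. Of 12 clock genes, 8, 8 and 7 were higher and 4, 4 and 4 lower, with Arntl, a core activator of the clock, lower by -2.39, -2.69 and -1.80. Of 12 feeding and fasting genes, 7, 6 and 4 were higher and 1 lower at each age, and the 4 at 10 months were close to the share of all genes. The part of these markers and lists in the sex differences was not tested.

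With limma on log2(FPKM + 0.1), 6, 8 and 7 of the 10 genes were lower in females at 2, 6 and 10 months, and 0 were higher. On that scale the median of all genes was 0.09, 0.12 and 0.15, and of all calls 25.7%, 22.6% and 18.8% were lower, against 48.2%, 48.4% and 47.5% with counts. Hsp90b1 no longer passed at 2 and 10 months, nor Xbp1 at 6 and 10 months.

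Across the allelic series, Syvn1 in Q175 against Q20 mice at 2 months was the one call among the 10 genes for any line with a longer repeat at that age. Syvn1 had 61.8, 84.5 and 248 CPM in Q175 mice (lowest, median and highest of 8) and 37.9, 56.5 and 71.6 CPM in Q20 mice (8 libraries). The ranges overlapped, but 5 of 8 Q175 libraries were above every Q20 library, and the male M1 stood far above the other Q175 mice. The difference was 0.87 ± 0.20 on the log2 scale (edgeR quasi-likelihood test, adjusted p = 0.0306). Of all genes tested, 0.31% were called in this comparison. The call was lost without the Q175 male M1 (0.63, adjusted p = 0.143), with limma on FPKM (0.71, adjusted p = 0.0564) and in a fit of the 2 groups alone (0.85, adjusted p = 0.0743). Without Q175 F1 or M4, or without Q20 F1, F4 or M2, it was lost too (adjusted p from 0.0517 to 0.0833 in edgeR). In females alone it was 0.58 (adjusted p = 0.712) and in males alone 1.12 (adjusted p = 0.0707).

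All 10 genes had a positive log2 fold change in Q175 mice at 2 months, from 0.09 for Dnajc3 to 0.87 for Syvn1, with a median of 0.21 beside -0.01 over all genes. Hspa5 was the next largest at 0.50 ± 0.17 and did not pass (adjusted p = 0.157 in edgeR). It had 503, 706 and 1211 CPM in Q175 mice and 352, 545 and 677 CPM in Q20 mice, with overlapping ranges and the highest value again in the male M1. Outside the 10, the median was 0.13 over 24 other ER chaperones, 0.11 over 20 degradation genes and 0.17 over 26 translocon and transport genes. Of 10 stellate cell markers 2 were lower, and their part in the Syvn1 result was not tested. Over the 6 knock-in lines at 2 months, the slope of Syvn1 per 100 CAG repeats was 0.49 ± 0.12 and missed the threshold (adjusted p = 0.0518 in edgeR). The background of that slope was 0.272% of genes called, 2 of the 10 genes had an unadjusted p below 0.05, limma called 0, and DESeq2 called 1, Syvn1, at an adjusted p of 0.019.

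The other lines share the same Q20 libraries. At 2 months none of the 10 genes passed in Q80, Q92, Q111 or Q140 against Q20 mice with edgeR, DESeq2 or limma, beside 0.0991%, 0.0%, 0.0% and 0.0% of all genes called in edgeR. At an unadjusted p below 0.05 the counts were 1, 1, 0 and 1 of the 10. The log2 fold changes ran from -0.02 to 0.48 in Q80, from -0.10 to 0.30 in Q92, from 0.10 to 0.40 in Q111 and from -0.06 to 0.45 in Q140 mice. In Q20 against WT mice 0 of the 10 passed with any of the 3 tools and 0 had an unadjusted p below 0.05, beside 0.0% of all genes, and the values ran from -0.23 for Sdf2l1 to 0.09 for Herpud1.

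**Figure D2:**
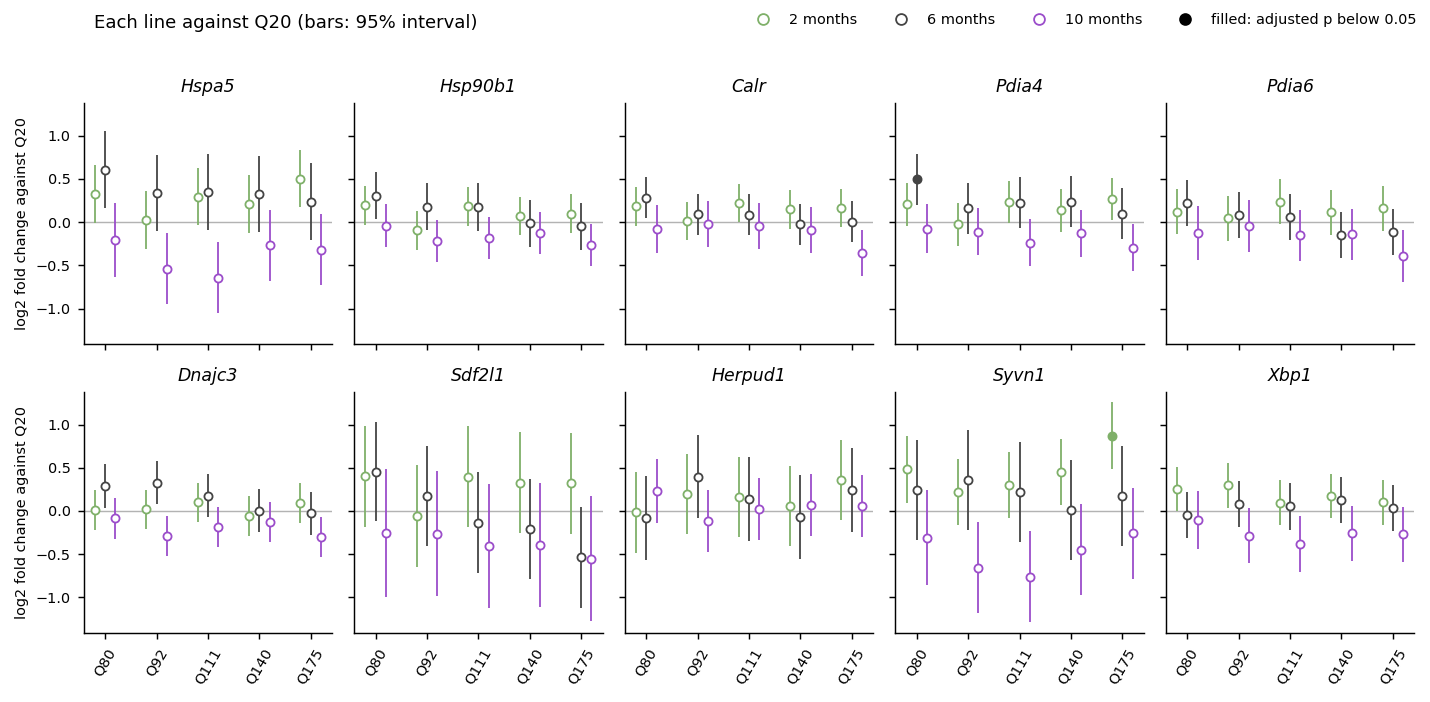
Log2 fold change of each longer-repeat line against Q20 for the 10 genes, with 95% intervals, coloured by age; filled points passed an adjusted p of 0.05. The 2 filled points are Syvn1 in Q175 mice at 2 months (0.87) and Pdia4 in Q80 mice at 6 months (0.50), and most intervals cross 0.

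At 6 months Pdia4 was higher in Q80 than in Q20 mice. It had 161, 214 and 327 CPM in Q80 mice and 113, 143 and 217 CPM in Q20 mice, and 3 of 8 Q80 libraries were above every Q20 library. The log2 fold change was 0.50 ± 0.15 (edgeR quasi-likelihood test, adjusted p = 0.0296), in a comparison where 9.3% of all genes were called. Only 1 of the 10 genes passed here, a share close to that of all genes, so the count does not set the 10 apart. Hspa5 had a larger value, 0.61 ± 0.23, and did not pass (adjusted p = 0.0756 in edgeR). Among the other lists 3 of 24 ER chaperones, 4 of 20 degradation genes and 6 of 26 translocon and transport genes were higher and 0 lower, with Manf, a secreted ER stress protein, at 0.78 (adjusted p = 0.0473 in edgeR) and Dnajb11, a co-chaperone of BiP, at 0.49 (adjusted p = 0.0458). Lower in Q80 mice were 4 of 5 neutrophil markers, 4 of 10 stellate cell markers and 2 of 12 Kupffer cell markers, whose summed level was 310.5 to 584 CPM in Q80 and 411 to 1279.7 CPM in Q20 mice, and their part in the result was not tested. The Pdia4 call was lost when 3 Q20 females, F1, F3 and F4, were left out together (0.46, adjusted p = 0.239), or any 1 of them alone, and without Q20 M1, Q80 F4 or Q80 M3.

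In the other lines at 6 months 0 of the 10 genes passed with edgeR, beside 18% of all genes called in Q92, 1.24% in Q111, 5.98% in Q140 and 10.9% in Q175 mice. The counts at an unadjusted p below 0.05 were 1, 0, 0 and 0, limma called 0 in each, and DESeq2 called 1 in Q92 mice, Dnajc3, and 0 in the others. The log2 fold changes ran from 0.08 to 0.40 in Q92, from -0.14 to 0.35 in Q111, from -0.21 to 0.33 in Q140 and from -0.54 to 0.25 in Q175 mice. The slope per 100 repeats ran from -0.43 for Sdf2l1 to 0.10 for Herpud1, with 0 passing in edgeR, DESeq2 or limma, 1 at an unadjusted p below 0.05, and 6.27% of all genes called.

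Hsp90b1 was lower in Q20 than in WT mice at 6 months, where library set and genotype cannot be told apart. It had 612, 689.8 and 894 CPM in Q20 mice and 662, 751 and 1856 CPM in WT mice, with overlapping ranges. The WT males M2 and M3, at 1558 and 1856 CPM, were the highest of all libraries at that age. Hsp90b1 differed by -0.38 ± 0.14 on the log2 scale (edgeR, adjusted p = 0.0324), beside 32.2% of all genes called. With 1 of the 10 genes past the threshold, the share was below that of all genes and does not set the 10 apart. The Hsp90b1 call was lost in edgeR without WT M2 (adjusted p = 0.0868), WT M3 (-0.24, adjusted p = 0.16) or Q20 M1 (adjusted p = 0.0662). It was also lost with limma on FPKM (-0.21, adjusted p = 0.212), where 22.4% of all calls were lower against 44.5% with counts. All 10 genes had negative values, from -0.51 for Hspa5 to -0.03 for Herpud1, and the other 9 did not pass. These signs rest in part on single libraries: without WT M2 the value was -0.22 for Hspa5, 0.33 for Syvn1 (-0.33 with it), 0.22 for Herpud1 and 0.06 for Sdf2l1, and without WT M3 it was 0.03 for Calr and 0.01 for Pdia6. Lower in Q20 mice were 6 of 24 ER chaperones, 6 of 20 degradation genes and 17 of 26 translocon and transport genes, and 1, 0 and 1 were higher. Higher were 10 of 12 Kupffer cell markers (summed 411 to 1279.7 CPM in Q20 and 257 to 835 CPM in WT mice), 7 of 9 endothelial markers (255 to 525 CPM in Q20 and 133 to 276 CPM in WT mice) and 5 of 10 stellate cell markers. Their part in the result was not tested.

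At 10 months 0 of the 10 genes passed in any line against Q20 mice with edgeR, DESeq2 or limma. Of all genes 0.0127% were called in Q80, 4.0% in Q92, 1.11% in Q111, 0.00637% in Q140 and 1.26% in Q175 mice, and at an unadjusted p below 0.05 the counts among the 10 were 0, 3, 3, 0 and 5. In Q175 mice 9 of 10 values were negative, from -0.55 for Sdf2l1 to 0.05 for Herpud1, with a median of -0.30 beside 0.00 over all genes. Values ran from -0.31 to 0.23 in Q80, from -0.65 to -0.02 in Q92, from -0.76 to 0.03 in Q111 and from -0.45 to 0.06 in Q140 mice. One Q20 library of that age, the male M3, was far above the other Q20 mice for Hspa5 (1690.2 CPM, against 752.9 CPM in the next), Syvn1 and most of the chaperone genes. Without it the value in Q175 against Q20 mice was -0.10 for Hspa5, beside -0.32 with it, -0.13 for Sdf2l1 and 0.03 for Syvn1, beside -0.26 with it, and 0 of the 10 genes passed. Without the Q175 female F1 it was -1.16 for Sdf2l1, -0.65 for Syvn1 and -0.55 for Hspa5, and without the Q175 male M4 Herpud1 was at -0.02. In Q20 against WT mice all 10 values were positive, from 0.01 for Herpud1 to 0.61 for Sdf2l1, with 0 passing in the 3 tools, 0 at an unadjusted p below 0.05 and 0.0127% of all genes called. Without the Q20 male M3 these values were 0.16 for Sdf2l1, 0.13 for Hspa5 and 0.09 for Syvn1, beside 0.35 and 0.39 for Hspa5 and Syvn1 with it, and Herpud1 was below 0 without Q20 F3 (-0.06) or that male, as was Xbp1 without Q20 M4 (-0.11). The slope per 100 repeats at 10 months had 0 of the 10 past the threshold in the 3 tools, 6 at an unadjusted p below 0.05 and 0.595% of all genes called.

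The levels of Hspa5 and Syvn1 in all 21 groups are given here as medians. At 2 months the median of Syvn1 was 60.4 CPM in WT, 56.5 in Q20, 78.9 in Q80, 59.8 in Q92, 67.0 in Q111, 75.3 in Q140 and 84.5 in Q175 mice. At 6 months it was 63.2, 63.7, 76.2, 83.7, 90.8, 76.0 and 84.7 CPM in the same order of genotypes. At 10 months it was 56.8, 75.7, 58.3, 52.0, 50.1, 58.8 and 61.8 CPM in that order. Q20 mice had the lowest median of the 7 genotypes at 2 months and the highest at 10 months.

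The median of Hspa5 at 2 months was 561 CPM in WT, 545 in Q20, 594 in Q80, 531 in Q92, 612 in Q111, 634 in Q140 and 706 in Q175 mice. At 6 months it was 549.9, 427, 590.6, 609.8, 612, 539 and 545 CPM in the same order, and at 10 months 478, 618, 502, 445, 426, 552 and 541 CPM. When the 7 genotypes of an age were ordered by their median, 0 of 180 pairs of neighbours, over 10 genes and 3 ages, had ranges that did not overlap. Neighbours in this order have the closest medians, so their overlap was nearly fixed in advance. Over the 18 comparisons of a line with Q20 or of Q20 with WT, 0 of 180 pairs of groups did not overlap. Each range holds both sexes, and the same count over all genes was not made. Neither count therefore shows that the lines were alike. The highest group mean was 1.31 times the lowest for Dnajc3, which had the narrowest span, and 2.33 times for Sdf2l1, which had the widest.

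**Figure D3:**
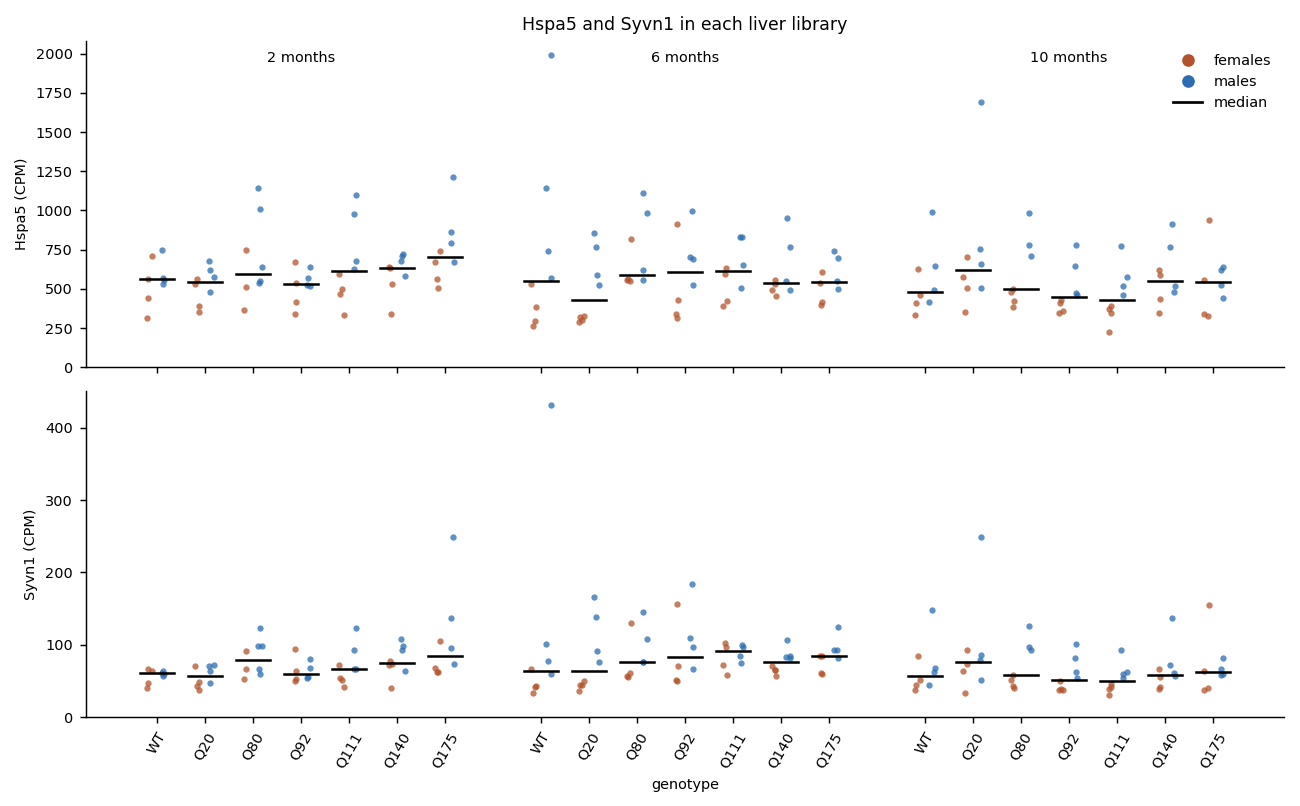
Hspa5 and Syvn1 in CPM in each library, by genotype within each age, with females left of males in each group and a line at the group median. Groups overlap throughout, and single male libraries stand apart in WT at 6 months (Syvn1 at 431 CPM), Q20 at 10 months (249) and Q175 at 2 months (248).

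Between ages, Pdia6 was lower at 10 than at 2 months over the 6 knock-in lines. The medians of the lines ran from 136 to 179.7 CPM at 10 months and from 173 to 210.4 CPM at 2 months, and the ranges of single libraries overlapped. The log2 fold change was -0.18 ± 0.06 (edgeR, adjusted p = 0.0346), beside 22.4% of all genes called. Pdia6 was the 1 gene of the 10 that passed, a share below that of all genes, which does not set the 10 apart. Calr was close behind at -0.14 ± 0.06 and did not pass (adjusted p = 0.0535 in edgeR), and it passed with DESeq2. With limma on FPKM Pdia6 did not pass (adjusted p = 0.0626), and of all calls 20.6% were lower, against 43.9% with counts. All 10 values were negative, from -0.26 for Sdf2l1 to -0.01 for Xbp1. B cell markers (9 of 9) and neutrophil markers (5 of 5) were higher at 10 months, and 3 of 9 hepatocyte markers were lower. Their part in the result was not tested, and age and library set cannot be told apart.

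The slope per 100 repeats passed as different between 10 and 2 months for 0 of the 10 genes with edgeR, DESeq2 or limma, beside 0.757% of all genes called. At an unadjusted p below 0.05 the count was 5 of 10. The difference of the slope, 10 months minus 2 months, was negative for all 10, from -0.67 ± 0.20 for Syvn1 (adjusted p = 0.0749 in edgeR) to -0.18 for Herpud1. The slope also did not pass as different between females and males in the 3 tools, with 0.0%, 0.226% and 0.173% of all genes called at 2, 6 and 10 months and 0, 1 and 0 of the 10 at an unadjusted p below 0.05.

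Within groups, most of the 10 genes varied together from mouse to mouse. For this, the mean of each genotype, age and sex was subtracted from the log2 CPM of each library, which leaves 1 residual per library and gene. Hspa5 was correlated with all of the other 9 genes (permutations within genotype, age and sex, adjusted over 9 relations). It was closest to Syvn1, with Pearson's r = 0.89 and Spearman's rho = 0.88 (each p = 1e-05, the smallest that 100000 permutations can give, adjusted p = 1.29e-05). The same p was reached by Pdia4 (r = 0.80, rho = 0.78), Dnajc3 (r = 0.77, rho = 0.78), Hsp90b1 (r = 0.73, rho = 0.74), Sdf2l1 (r = 0.71, rho = 0.68), Calr (r = 0.70, rho = 0.68) and Pdia6 (r = 0.64, rho = 0.60). Herpud1 (r = 0.35, rho = 0.36, p = 7e-05 and 3e-05, adjusted p = 7.87e-05 for r) and Xbp1 (r = 0.31, rho = 0.33, p = 0.00091 and 0.00029, adjusted p = 0.00091 for r) were the loosest. Without the 2 libraries farthest from the median of Hspa5, r ran from 0.34 for Herpud1 to 0.88 for Syvn1. The share of all genes that would pass against Hspa5 was not computed. In another family of relations, 13 of 24 clock and feeding genes passed for Hspa5, so passing alone does not set the 9 genes apart.

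The relation of Hspa5 and Syvn1 was 0.82, 0.89 and 0.94 within 2, 6 and 10 months, and 0.91 in females and 0.88 in males. That of Hspa5 and Xbp1 was 0.25, 0.33 and 0.34 within the 3 ages, and 0.13 in females and 0.43 in males. The 7 chaperone and oxidoreductase genes were correlated with one another at r from 0.64 to 0.93 over 21 pairs, with a median of 0.84. Syvn1 was correlated with the 7 at 0.52 to 0.89, Xbp1 at 0.21 to 0.31 and Herpud1 at 0.02 to 0.35. The libraries share tissue and normalization, and these values across pairs are a description.

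**Figure D4:**
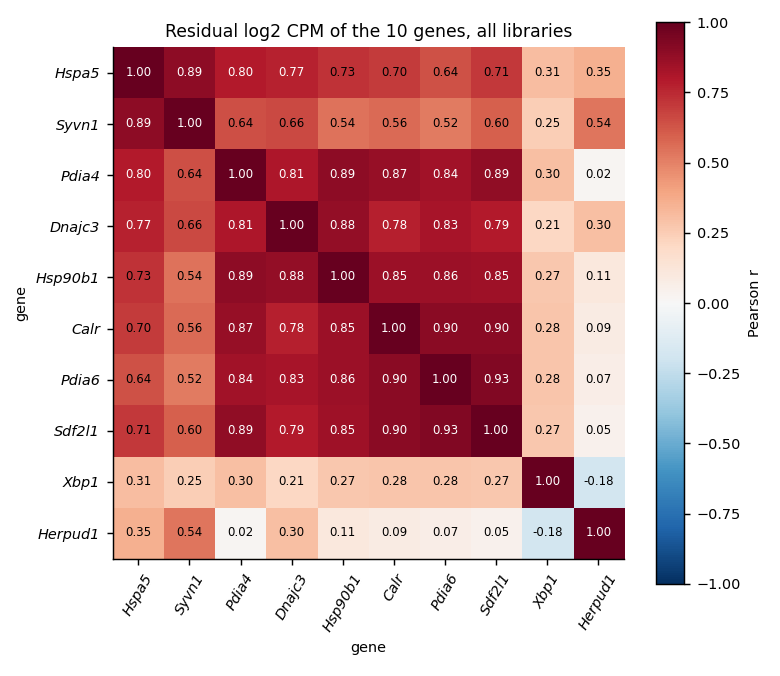
Pearson's r between residual log2 CPM of each pair of the 10 genes over all libraries, after the mean of each genotype, age and sex was removed. The 7 chaperone and oxidoreductase genes form a block at 0.64 to 0.93, Syvn1 joins it most closely through Hspa5 (0.89), and Xbp1 and Herpud1 lie outside it.

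Among 10879 other genes compared in the same residuals, those most like the mean of the 10 were Dnajb11 (r = 0.97), a BiP co-chaperone, Pdia3 (0.94), a disulfide isomerase that works with calreticulin, and Creld2 (0.94), an ER stress protein. They were followed by Slc35b1 (0.90), an ER nucleotide transporter, Manf (0.88) and Hyou1 (0.87), a large ER chaperone. Nars (0.86), Rpn1 (0.86), Surf4 (0.85) and Morf4l2 (0.85) completed the 10 most alike. In the promoter window Creld2 had an ERSE and Dnajb11 had an ERSE-II. Pdia3, Slc35b1, Rpn1, Surf4 and Morf4l2 had neither, with Manf, Hyou1 and Nars not in the table. For Syvn1 alone the closest were Ubfd1 (0.93) and Hyou1 (0.88), and for Xbp1 alone Gbp11 (0.69) and Tuft1 (0.68). The genes of single patterns were chosen after their values were seen. All r are over all libraries.

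Herpud1 kept another company. Its closest genes were Cln8 (r = 0.85), St3gal5 (0.85) and Lpin1 (0.84), a phosphatase of lipid synthesis. Its relation with 24 clock and feeding genes was examined beside that of Hspa5, as a family of 48 relations in which Herpud1 was chosen after its values were seen. Of the 24, 22 passed for Herpud1 and 13 for Hspa5 (permutations within groups, adjusted p below 0.05). Herpud1 varied with Per1, a clock repressor (r = 0.79, rho = 0.76), and with Pck1, the fasting enzyme of gluconeogenesis (r = 0.79, rho = 0.79), each at p = 1e-05 and an adjusted p of 3.43e-05. It ran against Arntl (r = -0.68, rho = -0.65, p = 1e-05). For Hspa5 the same 3 genes, picked here for Herpud1, had r = 0.00, 0.23 and -0.13. The relations of Hspa5 that were largest in size were with Elovl6, a fatty acid elongase (r = 0.42, rho = 0.42), and with Nr1d2, a clock repressor (r = -0.42, rho = -0.44), each at p = 1e-05 and an adjusted p of 3.43e-05.

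The relation of Herpud1 with Per1 was 0.81, 0.83 and 0.68 within 2, 6 and 10 months, and 0.61 in females and 0.85 in males. With Pck1 it was 0.88, 0.84 and 0.64, and 0.78 in females and 0.80 in males. With Arntl it was -0.79, -0.65 and -0.54, and -0.35 in females and -0.80 in males. Without the 2 libraries farthest from the median of Herpud1, r was 0.78 for Per1, 0.80 for Pck1 and -0.65 for Arntl. The labels give no hour of death or feeding state, so these cannot be set against the values.

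**Figure D5:**
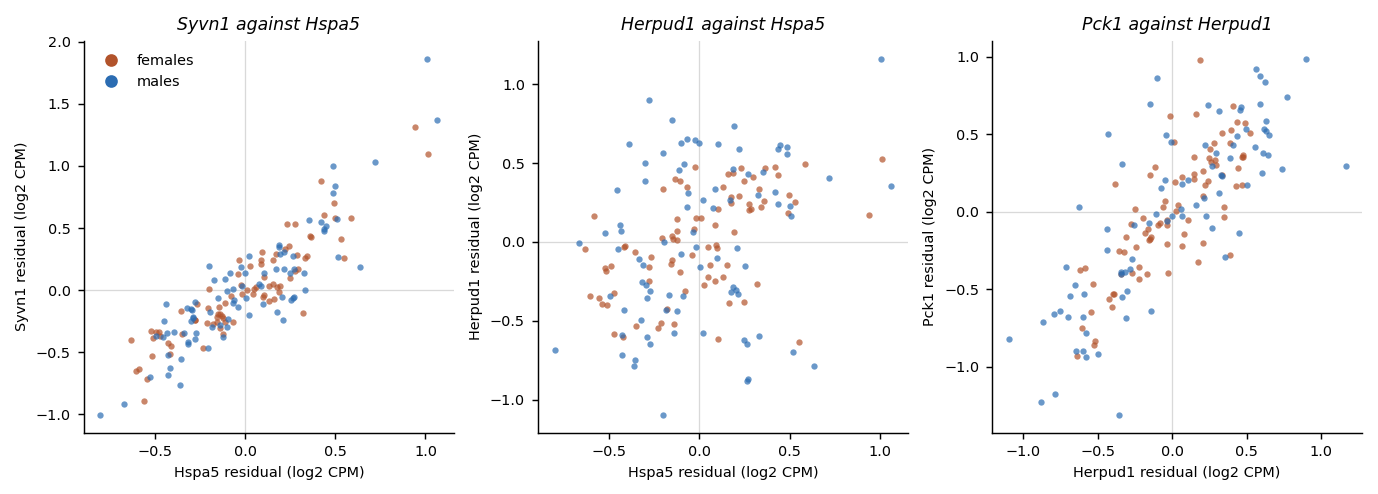
Residual log2 CPM of Syvn1 against Hspa5, Herpud1 against Hspa5 and Pck1 against Herpud1 in all libraries, females and males coloured. Points follow a line in the first (r = 0.89) and last (r = 0.79) panels and spread widely in the middle one (r = 0.35).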

How the data were processed

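Liver polyA RNA was measured in 21 groups. For each library the authors deposited expected counts and, in a second table, FPKM, both over 39179 Ensembl IDs. Base calling used CASAVA 1.8.2, per the submitters' processing notes. Which aligner, quantifier and genome build they used is not given in the sources used here. Of the deposited expected counts 14.1% were not whole, and they were rounded. GENCODE M21 (GRCm38) gave symbols and positions, and 1486 IDs had no symbol.

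The count test was the quasi-likelihood F test of edgeR 4.0.16 (R 4.3.3), after TMM normalization and filterByExpr, called where the Benjamini-Hochberg adjusted p over every gene tested was below 0.05. Libraries of 1 age, with 7 genotypes and sex in the model, shared a fit. The CAG slope per 100 repeats, and its interactions with sex and age, were fitted in the 6 knock-in lines, with the repeat length taken from the name of the line. An SE is the log2 fold change over the square root of F. It holds counting error and the spread between mice, which were not separated, and every one of the 10 genes had at least 137 counts in each library. Alternatives were DESeq2 1.42.0, RLE factors, no filter, limma 3.58.1 on log2 of the authors' FPKM with a pseudocount of 0.1, a replicate block and libraries left out. FPKM is the scale for levels between genes. The fits were tested on simulated data.

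Correlations used residual log2 CPM (prior count 0.5) and 100000 permutations within genotype, age and sex, two-sided. Genes compared for likeness had a mean log2 CPM of at least 1. The text names all 10 genes in every comparison and, of each pathway list, up to 3 genes that passed with the smallest p. The 10 genes and the lists were chosen with earlier results of these data known.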

Additional observations from a re-analysis of the deposited data

Results flagged for a closer look

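In each of 210 sets of 10 genes and 21 groups, the highest or lowest library was compared with the others by the ratio of its gap to the range of the group (Dixon's criterion, 95% level). It stood apart in 14 sets, and chance gives about 1 in 20. Each group holds both sexes, and the criterion takes no account of sex: in 11 of the 14 sets the library was the highest and a male, in 1 the highest and a female, and in 1 of each sex the lowest. No cause was tested.

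The Q20 male M3 at 10 months stood above its group for 4 genes: Hsp90b1 at 1537.8 CPM (others 715 to 869 CPM), Calr at 1069 CPM (469 to 628 CPM), Pdia4 at 332 CPM (128 to 158 CPM) and Dnajc3 at 393 CPM (195 to 253 CPM). The Q20 male M1 at 2 months stood above its group for 3 of the same genes, with Hsp90b1 at 1156 CPM (697 to 827 CPM), Pdia4 at 223 CPM (119.9 to 158 CPM) and Dnajc3 at 303 CPM (185 to 221 CPM). Both are libraries of the line that the longer repeats were set against.

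In WT mice at 6 months the male M2 had Syvn1 at 431 CPM (33.4 to 100.5 CPM in the others), and in Q140 mice at 10 months the male M4 had Hsp90b1 at 1189 CPM (688 to 854 CPM). In Q92 mice at 2 months the female F4 had Pdia6 at 266 CPM (156 to 190.0 CPM). Xbp1 stood high in the Q111 males M1 at 10 months, at 237 CPM (118 to 156 CPM), and M3 at 2 months, at 235 CPM (136 to 174 CPM). Low values were found in the Q140 group at 2 months: Hspa5 at 340.6 CPM in the female F4 (528 to 721 CPM) and Herpud1 at 173 CPM in the male M2 (336 to 567 CPM).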

How the results depend on the processing

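No value that passed, in the test as reported or under an alternative, changed direction. Of the counts of genes past the threshold 408 were within 1.5 times and 42 moved. Of the values of single genes 4293 kept sign and side, 22 gained and 28 lost a call, and 157 that did not pass in either setting changed sign (72 of them without single libraries, 18 with limma on FPKM), from values of at most 0.33 in size to values of at most 0.33. The largest was Syvn1 in Q20 against WT mice at 6 months, 0.33 without WT M2. For Q175 against Q20 at 2 months the count of 1 became 0 with females alone, with males alone, with limma on FPKM and with the 2 groups alone, and ran from 0 to 1 without single libraries. The slope at 2 months, with a count of 0, had 1 with DESeq2 and 0 to 1 without single libraries. Q92 against Q20 at 6 months, with 0, had 1 with DESeq2 and 1 with the 2 groups alone. Q80 against Q20 at 6 months, with 1, had 2 with the 2 groups alone (Hspa5 added), 0 when the Q20 females F1, F3 and F4 were all left out, and 0 to 2 without single libraries. Q20 against WT at 6 months, with 1, had 0 with limma, 0 with the 2 groups alone, 0 without those females, and 0 to 3 without single libraries. The slope at 6 months, with 0, had 1 without the Q20 libraries (Dnajc3, -0.41). For 10 against 2 months the count of 1 was 2 with DESeq2, 2 with the replicate block, 2 without libraries with bile duct RNA and 2 without the Q80 male M5, with Calr added, and 0 with limma. The cause was not tested.

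Same-numbered libraries were not paired: correlations of their deviations in Q175 and Q20 ran from -0.26 to 0.17, -0.01 to 0.27 and -0.12 to 0.43 at 2, 6 and 10 months. The replicate block also added Xbp1 to the genes lower in females at 2 months (-0.16, adjusted p = 0.0383 in edgeR), for a count of 8, and changed no other call. Leaving out single libraries was not run for sex, for 10 against 2 months, or for every line. Chosen after seeing the data were leaving out single libraries for Q80 against Q20 and Q20 against WT, and, for sex, a block by the replicate number across the sexes. The libraries set apart for bile duct RNA were 7 with Krt19 above 10 CPM. The smallest count of any of the 10 genes was 137, and counting error was not separated from the spread between mice.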
